A study of Mus musculus with 6 samples.

Results

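The genes described here encode the T cell receptor complex and the first signalling proteins behind it. They were taken from a list of 9 names, namely the CD3 chains Cd3e, Cd3d and Cd3g, the zeta chain Cd247, the coreceptor Cd4, the kinases Lck and Zap70, and the adaptors Lat and Lcp2. Of these, 8 had a probe set annotated to 1 gene, out of 19937 such genes on the array, and Lck was not analysed here. They were chosen by name and not by a threshold on a measured value. RNA came from CD4+ T cells of B6 mouse spleen that had a first activation of 2 days by anti-CD3 and anti-CD28, a night of rest, and then 20 min with the restimulating antibody before its cross-linking for 8 h. The restimulating antibodies were anti-CD3 and anti-ICOS in 2 cultures and anti-CD3 alone in 4 cultures, so all 6 cultures shared the earlier activation and the anti-CD3 restimulation, and no unstimulated or anti-ICOS-only culture was analysed here. Each culture was read on 1 Affymetrix array, and the labels call the cultures of a group biological replicates without naming their animals. The p-values therefore measure the spread between these arrays, and the 2 arrays with anti-ICOS limit the precision.

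The T cell receptor binds peptide on MHC molecules but has no signalling tail of its own. The CD3 chains and the zeta chain carry that signal through tyrosine motifs (ITAMs) in their tails, which the kinase LCK, held by the CD4 coreceptor, phosphorylates. ZAP-70 binds the phosphorylated motifs and in turn phosphorylates LAT and SLP-76, the product of Lcp2, on which calcium, Ras and NF-kB signalling are assembled. ICOS is a costimulatory receptor of the CD28 family that acts mainly through PI3-kinase, and the comparison asks whether engaging it beside CD3 alters transcripts of the receptor apparatus.

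Cd3g, Cd3d and Cd3e lie next to each other on chromosome 9, and the Cd3g and Cd3d start sites face away from each other on opposite strands. Promoters of the 4 signalling chains are shown because the groups overlapped for the neighbours Cd3d and Cd3g and did not for Cd3e and Cd247. Each sequence is the 250 bases before the gene's start, read 5′ to 3′ on the gene's strand, from RefSeq on GRCm38.p6. Capitals mark the motifs searched on both strands, AGGAAG (ETS type), TGTGGT (RUNX type), CACCTG (E-box), CTTTGA (TCF/LEF type) and TGACG (CRE type), of which no 2 matches overlap here. The table held promoters of 8 of the 9 listed genes, all but Cd4.
Cd3e: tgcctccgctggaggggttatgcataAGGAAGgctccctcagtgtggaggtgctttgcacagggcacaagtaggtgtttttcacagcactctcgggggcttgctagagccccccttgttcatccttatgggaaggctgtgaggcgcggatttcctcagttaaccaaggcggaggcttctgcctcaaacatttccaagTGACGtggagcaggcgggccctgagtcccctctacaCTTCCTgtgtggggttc
Cd247: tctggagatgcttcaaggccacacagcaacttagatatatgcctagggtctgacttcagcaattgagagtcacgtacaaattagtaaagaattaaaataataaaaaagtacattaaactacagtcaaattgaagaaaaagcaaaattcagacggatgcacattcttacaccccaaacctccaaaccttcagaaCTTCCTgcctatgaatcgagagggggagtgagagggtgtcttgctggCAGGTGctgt
Cd3d: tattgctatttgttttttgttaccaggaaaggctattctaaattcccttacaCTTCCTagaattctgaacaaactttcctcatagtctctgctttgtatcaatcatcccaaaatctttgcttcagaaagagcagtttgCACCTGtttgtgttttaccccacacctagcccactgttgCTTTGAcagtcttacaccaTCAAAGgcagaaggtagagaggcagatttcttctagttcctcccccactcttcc
Cd3g: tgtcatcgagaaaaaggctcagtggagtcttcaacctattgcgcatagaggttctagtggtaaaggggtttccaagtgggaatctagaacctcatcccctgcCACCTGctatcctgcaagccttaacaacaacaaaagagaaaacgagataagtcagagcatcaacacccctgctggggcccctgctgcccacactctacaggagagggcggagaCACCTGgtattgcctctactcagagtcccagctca
These windows are chr9:45009612-45009861 (minus strand), chr1:165788431-165788680 (plus strand), chr9:44981536-44981785 (plus strand) and chr9:44980432-44980681 (minus strand). The ETS-type letters occurred at 2 places in the Cd3e window and at 1 place each in the Cd247 and Cd3d windows, and 29.5% of 32851 promoter windows of this length hold them. The E-box letters occurred 2 times in Cd3g and 1 time each in Cd3d and Cd247, against 17.2% of all windows with a match. The TCF/LEF-type letters occurred 2 times in Cd3d (13.8% of all windows with a match) and the CRE-type letters 1 time in Cd3e (17.8%). The RUNX-type letters, found in 14.0% of all windows, had no match in these 4. These matches describe letters in the windows and say nothing of binding.

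The 6 arrays had near-equal medians, between 109 and 114 intensity units, but anti-CD3 replicate 4 stood apart from its group. Across genes, which are not independent replicates, its Pearson r was 0.996 with each of the anti-ICOS arrays, while it was 0.986, 0.987 and 0.982 with the 3 other arrays of its group. The differences of the 8 genes are therefore given with all 4 anti-CD3 arrays, without replicate 4, and against replicate 4 alone. The cultures carried the T cell transcripts Cd3e and Cd4, but not those alone. On the log2 scale the CD8 genes Cd8b1 and Cd8a averaged 11.69 and 10.19 with anti-ICOS and 11.59 and 10.11 with anti-CD3. The B cell genes Cd79b and Cd79a, which encode the signalling chains of the B cell receptor, averaged 12.64 and 12.18 with anti-ICOS and 12.48 and 12.26 with anti-CD3, so the label CD4+ T cells does not describe all RNA in these cultures. In such bulk samples, fewer cells of a type and less RNA per cell cannot be told apart.

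With anti-ICOS, none of the 8 genes changed by the test over all genes, and the differences were small, from 0.79-fold for Cd4 to 1.12-fold for Lcp2. Limma with Benjamini-Hochberg adjustment called 0 of 8, beside 0.271% of all genes. At an unadjusted p under 0.05 there were 2 of the 8 (Cd3e and Cd4), beside 11.8% of all genes. Both anti-ICOS arrays lay below all 4 anti-CD3 arrays for 3 of the 8 genes (Cd3e, Cd247 and Cd4), beside 14.8% of all genes, and above them for 1 of the 8 (Lcp2), beside 8.51%. The median difference of the 8 genes was -0.098 on the log2 scale, and that of all genes was -0.031. Without the dimmest 40% of genes, a filter that kept the 8, the median over all genes was 0.043.

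The picture turned on anti-CD3 replicate 4. Without it limma called 5 of the 8, with Cd3e, Cd247, Cd4 and Zap70 lower and Lcp2 higher with anti-ICOS, beside 29.7% of all genes (12.7% lower and 17.1% higher). Against replicate 4 alone it called 0 of the 8, beside 0.176% of all genes. Array quality weights, which gave replicate 4 the lowest weight, called the same 5 genes in the same directions, beside 47.2% of all genes (24.4% lower and 22.8% higher). For these 5 genes replicate 4 itself lay on the anti-ICOS side of replicates 1 to 3. The 2 anti-ICOS arrays and replicate 4 lay together below replicates 1 to 3 for 4 of the 8 genes, beside 30.4% of all genes, and together above for 1 of the 8, beside 25.9%.

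**Figure D1:**
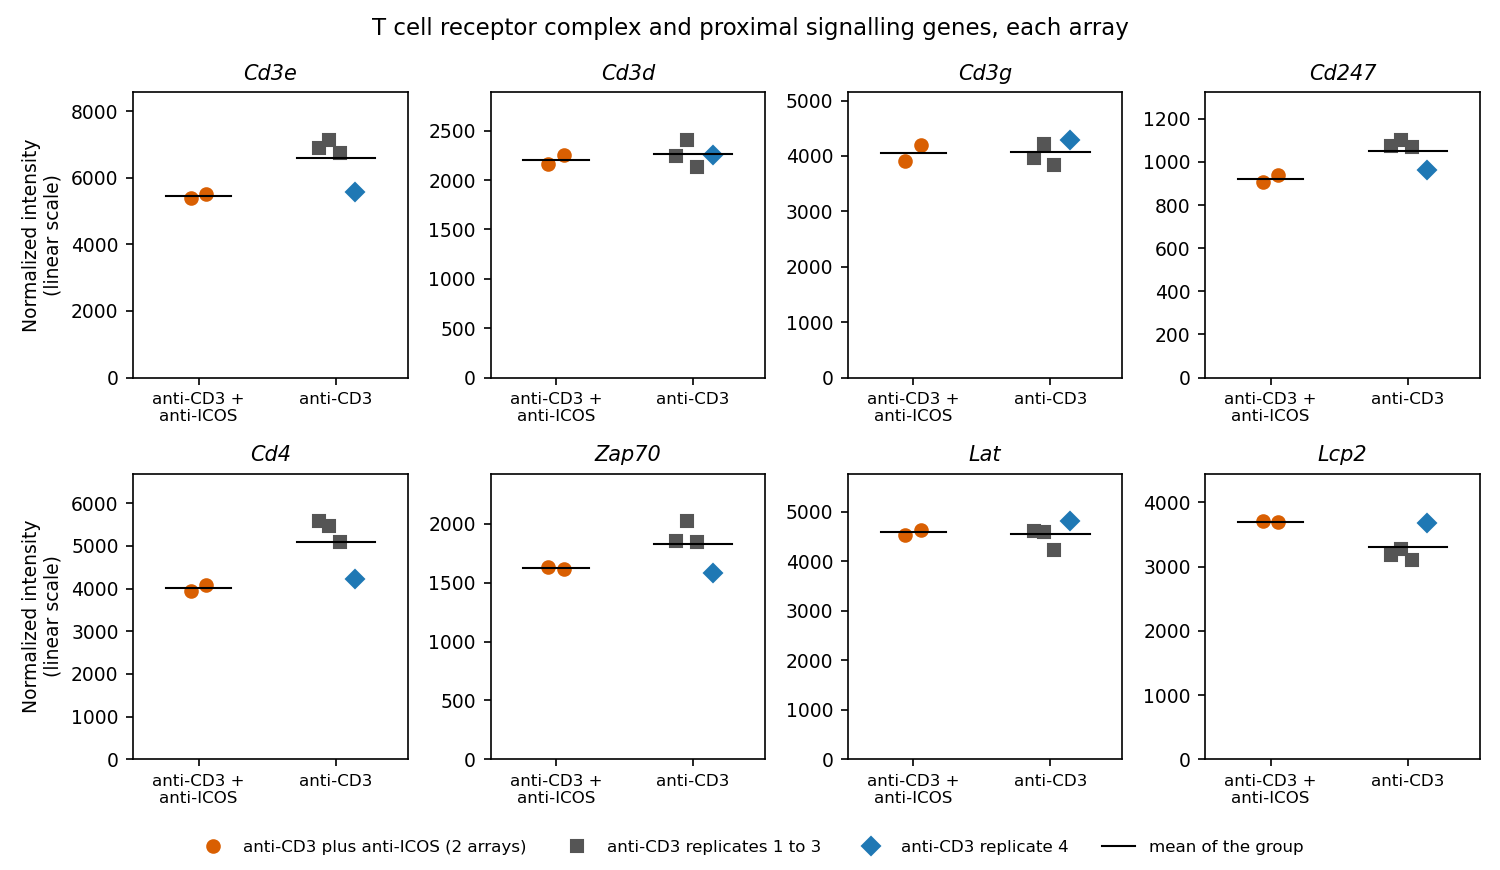
Normalized intensity on a linear scale for the 8 genes on each of the 6 arrays, with anti-CD3 plus anti-ICOS (circles, 2 arrays) left of anti-CD3 (squares, replicates 1 to 3, and a diamond, replicate 4), and a line at each group's mean. Replicate 4 sits beside the anti-ICOS arrays for Cd3e, Cd247, Cd4, Zap70 and Lcp2, and the groups overlap for Cd3d, Cd3g and Lat.

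Among the invariant chains of the receptor, Cd3e was the lowest relative to anti-CD3. Cd3e, whose product pairs with CD3 delta and CD3 gamma in the complex, read 5380 and 5507 intensity units with anti-ICOS, against 6895, 7143, 6746 and 5584 units in anti-CD3 replicates 1 to 4. Both anti-ICOS arrays lay below every anti-CD3 array, and replicate 4 was the nearest to them. On the log2 scale Cd3e averaged 12.41 ± 0.024 with anti-ICOS (SD, n = 2) and 12.68 ± 0.16 with anti-CD3 (SD, n = 4), a difference of -0.27 ± 0.11 (SE, limma adjusted p = 0.419, 95% confidence interval -0.53 to -0.011 before adjustment). Without replicate 4 Cd3e was lower by 0.35 with anti-ICOS, a difference of -0.35 ± 0.063 (adjusted p = 0.00649). Against replicate 4 alone the difference was -0.037 ± 0.084 (adjusted p = 1.00).

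The partner chains on the same stretch of chromosome 9 did not separate the groups. Cd3d, which encodes the delta chain, read 2158 and 2257 units with anti-ICOS, against 2247, 2410, 2134 and 2250 units in anti-CD3 replicates 1 to 4. The anti-ICOS values lay inside the anti-CD3 range, and the log2 difference was -0.033 ± 0.076 (adjusted p = 0.816), with an interval of -0.21 to 0.15. Cd3g, which encodes the gamma chain, read 3907 and 4194 units with anti-ICOS, against 3971, 4213, 3843 and 4296 units in anti-CD3 replicates 1 to 4. Here too the groups overlapped, with a log2 difference of -0.010 ± 0.079 (adjusted p = 0.949) and an interval of -0.20 to 0.18. Without replicate 4 the differences were -0.034 for Cd3d and 0.015 for Cd3g (adjusted p = 0.739 and 0.884), and against replicate 4 alone they were -0.028 ± 0.099 and -0.086 ± 0.095 (adjusted p = 1.00 for both). The protein-coding genes on either side of the 3 Cd3 genes, Ube4a and Mpzl2, differed by 0.073 and 0.31 on the log2 scale (adjusted p = 0.587 and 0.337). Without replicate 4 Mpzl2 was higher by 0.31 (adjusted p = 0.0186) and Ube4a differed by 0.10 (adjusted p = 0.222), and against replicate 4 alone the differences were 0.30 and -0.021 (adjusted p = 0.717 and 1.00).

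Cd247 encodes the zeta chain, which has more ITAMs than any CD3 chain. It read 908 and 937 units with anti-ICOS, against 1076, 1104, 1070 and 963 units in anti-CD3 replicates 1 to 4. Both anti-ICOS arrays lay below all anti-CD3 arrays, and replicate 4 was the lowest of its group. The log2 means were 9.87 ± 0.031 with anti-ICOS (SD, n = 2) and 10.06 ± 0.086 with anti-CD3 (SD, n = 4), a difference of -0.19 ± 0.080 (adjusted p = 0.420, interval -0.37 to 0.0020). Without replicate 4 the difference was -0.23 ± 0.061 (adjusted p = 0.0279), and against replicate 4 alone -0.061 ± 0.082 (adjusted p = 1.00).

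The coreceptor gene Cd4 had the largest difference of the 8. Cd4 read 3938 and 4080 units with anti-ICOS, against 5574, 5461, 5090 and 4221 units in anti-CD3 replicates 1 to 4. Both anti-ICOS arrays were below all anti-CD3 arrays, and replicate 4 lay nearer to them than to its own group. Its log2 means were 11.97 ± 0.036 with anti-ICOS (SD, n = 2) and 12.31 ± 0.18 with anti-CD3 (SD, n = 4), a difference of -0.33 ± 0.12 (adjusted p = 0.416, interval -0.62 to -0.049). Without replicate 4 Cd4 differed by -0.42 ± 0.068 (adjusted p = 0.00409), and against replicate 4 alone by -0.074 ± 0.092 (adjusted p = 1.00). Of the other coreceptor genes, Cd8a and Cd8b1 differed by 0.075 ± 0.11 and 0.096 ± 0.091 (adjusted p = 0.711 and 0.564), and against replicate 4 alone these values were -0.13 and -0.070.

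Zap70, the kinase that docks on phosphorylated ITAMs, read 1632 and 1618 units with anti-ICOS, against 1858, 2022, 1850 and 1583 units in anti-CD3 replicates 1 to 4. The anti-ICOS arrays lay below replicates 1 to 3 and above replicate 4, so the groups overlapped through that array. The log2 difference was -0.16 ± 0.10 (adjusted p = 0.451, interval -0.41 to 0.080). Without replicate 4 it was -0.23 ± 0.068 (adjusted p = 0.0389), and against replicate 4 alone 0.037 ± 0.092 (adjusted p = 1.00).

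Lat and Lcp2 encode the adaptors that ZAP-70 phosphorylates. Lat, the membrane scaffold, read 4542 and 4631 units with anti-ICOS, against 4611, 4601, 4223 and 4810 units in anti-CD3 replicates 1 to 4. The anti-ICOS values lay inside the anti-CD3 range, with a log2 difference of 0.0093 ± 0.077 (adjusted p = 0.952, interval -0.17 to 0.19), 0.035 ± 0.069 without replicate 4 (adjusted p = 0.713) and -0.069 ± 0.092 against replicate 4 alone (adjusted p = 1.00). Lcp2, which encodes the cytosolic adaptor SLP-76, read 3705 and 3697 units with anti-ICOS, against 3186, 3269, 3104 and 3678 units in anti-CD3 replicates 1 to 4. It was the single member whose anti-ICOS values both exceeded every anti-CD3 value, with replicate 4 close beneath. The log2 difference of Lcp2 was 0.16 ± 0.087 (adjusted p = 0.428, interval -0.042 to 0.37), with 0.22 ± 0.062 without replicate 4 (adjusted p = 0.0348) and 0.0092 ± 0.083 against replicate 4 alone (adjusted p = 1.00).

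**Figure D2:**
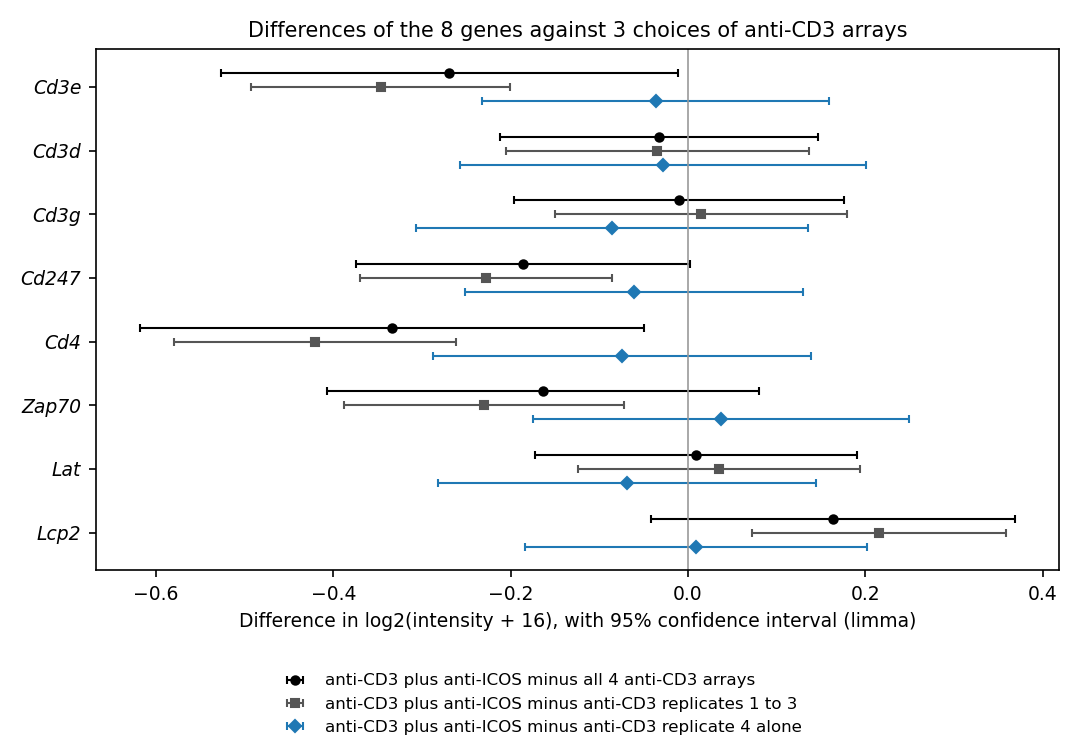
Difference in log2(intensity + 16) between anti-CD3 plus anti-ICOS and 3 choices of anti-CD3 arrays, with 95% confidence intervals from limma before adjustment (circles, all 4 arrays; squares, replicates 1 to 3; diamonds, replicate 4 alone). The squares of Cd3e, Cd247, Cd4, Zap70 and Lcp2 have intervals clear of 0, while all 8 intervals against replicate 4 alone include 0.

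Between the members, the difference of Cd3e less that of its neighbour Cd3d was -0.24 on the log2 scale, and the widest of the 28 such gaps, that of Cd4 less that of Lcp2, was -0.50. An exact permutation test of 2 against 4 arrays gave p = 0.267 for the first gap and p = 0.133 for the second. After Benjamini-Hochberg adjustment these exact permutation test values were p = 0.439 and p = 0.311. An exact permutation test of this size cannot go below p = 0.133, a value reached by 12 of the 28 pairs. It therefore cannot decide whether any gap differs between the groups.

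The rest of the proximal pathway was read from 5 lists of other genes, of which 47 of 52 were measured. Limma called 0 of the 47 with all arrays, beside 0.271% of all genes. An unadjusted p under 0.05 was found for 8 (5 higher and 3 lower), beside 11.8% of all genes. The median log2 difference of the 47 was 0.067, against -0.031 over all genes. Without the dimmest 40% of genes, a filter that kept all 47, the median over all genes was 0.043. Without replicate 4 limma called 16, with 12 higher and 4 lower, beside 17.1% of all genes higher and 12.7% lower, and against replicate 4 alone it called 0, beside 0.176%. No member of these lists named below passed the test with all arrays.

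Among receptor chains and coreceptors 0 of 7 measured genes were called, and 0 were higher and 1 lower without replicate 4, beside 17.1% of all genes higher and 12.7% lower. Cd28, the main costimulatory receptor gene of T cells, differed by -0.28 ± 0.093 (adjusted p = 0.413), and without replicate 4 it differed by -0.34 (adjusted p = 0.00614). Cd6 and Cd5, both scavenger-type receptors on the T cell surface, showed differences of -0.16 ± 0.067 and -0.11 ± 0.066 (adjusted p = 0.421 and 0.440), and without replicate 4 of -0.16 and -0.11 (adjusted p = 0.0885 and 0.220). Unlike Cd3e and Cd4, for Cd6 and Cd5 replicate 4 lay close to replicates 1 to 3, at -0.029 and 0.018 from their mean. Both anti-ICOS arrays lay below all 4 anti-CD3 arrays for 3 of the 7 measured genes, beside 14.8% of all genes, and above for 0, beside 8.51%. The 3 were Cd28, Cd6 and Cd5, which were named for their small p. Against replicate 4 alone the differences of these 3 genes were -0.10, -0.13 and -0.12 (adjusted p = 1.00 for each).

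Of 5 measured kinase genes other than Zap70, 0 were called, and 1 was higher and 0 lower without replicate 4, beside 17.1% of all genes higher and 12.7% lower. That gene was Tec, a kinase that acts on phospholipase C, with a difference of 0.33 ± 0.16 with all arrays (adjusted p = 0.423), 0.45 without replicate 4 (adjusted p = 0.00304) and -0.050 against replicate 4 alone. Csk, which phosphorylates the inhibitory tyrosine of LCK, differed by 0.086 ± 0.076 (adjusted p = 0.542), and the TEC-family kinase gene Txk by -0.097 ± 0.087 (adjusted p = 0.550). Without replicate 4 Csk and Txk differed by 0.11 and -0.051 (adjusted p = 0.267 and 0.584), and against it alone by 0.025 and -0.23 (adjusted p = 1.00 and 0.893).

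Among 14 adaptor genes 0 were called, and without replicate 4 there were 5 higher and 1 lower, beside 17.1% of all genes higher and 12.7% lower. Trat1, a transmembrane adaptor that associates with the receptor complex, had the largest difference of the pathway genes named here. It read 9.01 and 8.76 on the log2 scale with anti-ICOS, against 7.71, 7.85, 7.42 and 8.52 in anti-CD3 replicates 1 to 4, a difference of 1.01 ± 0.28 (adjusted p = 0.389). The anti-ICOS values both exceeded every anti-CD3 value, with replicate 4 the nearest. Without replicate 4 Trat1 was higher by 1.22 (adjusted p = 0.000720), and against replicate 4 alone it differed by 0.36 (adjusted p = 1.00). Sh2b3, an inhibitory adaptor of cytokine receptor signalling, differed by 0.28 ± 0.11 and Themis, an adaptor known from T cell selection in the thymus, by -0.19 ± 0.075 (adjusted p = 0.416 and 0.419). Without replicate 4 their differences were 0.36 and -0.16 (adjusted p = 0.00485 and 0.101), and against it alone 0.054 and -0.27 (adjusted p = 1.00 and 0.711). For Themis replicate 4 was the highest anti-CD3 array.

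Effectors that assemble on LAT and SLP-76 had the highest median of the 5 lists, 0.20 over 8 measured genes. The median was -0.031 over all genes and 0.043 without the dimmest 40% of genes. None of the 8 was called with all arrays, and without replicate 4 there were 5 higher and 0 lower, beside 17.1% of all genes higher and 12.7% lower. Orai1, the pore of the calcium channel opened by store depletion, differed by 0.40 ± 0.11, the Ras activator gene Sos1 by 0.63 ± 0.19 and Malt1, a paracaspase gene of NF-kB signalling, by 0.36 ± 0.13 (adjusted p = 0.413, 0.413 and 0.416). Of the 8 genes, the pair with anti-ICOS exceeded the whole anti-CD3 range for 3, beside 8.51% of all genes. The pair fell short of that range for 1 of the 8, beside 14.8% of all genes. The 3 were Orai1, Sos1 and Malt1, which were named for their small p. Without replicate 4 Orai1, Sos1 and Malt1 were higher by 0.48, 0.78 and 0.44 (adjusted p = 0.00251, 0.000520 and 0.0145), and against it alone they differed by 0.16, 0.16 and 0.14 (adjusted p = 1.00 for each). Set against the same replicates 1 to 3, the list's median was 0.28 with anti-ICOS and 0.31 in replicate 4. The medians over all genes, dim ones included, were -0.041 and -0.036.

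Negative regulators had a median of 0.0028 over 13 genes, with 0 called, and 1 higher and 2 lower without replicate 4, beside 17.1% of all genes higher and 12.7% lower. Sla, which encodes an adaptor that promotes loss of the receptor from the surface, differed by -0.29 ± 0.10, the ubiquitin ligase gene Cblb by -0.23 ± 0.11 and the phosphatase gene Ptpn2 by 0.17 ± 0.085 (adjusted p = 0.415, 0.423 and 0.423). Without replicate 4 their differences were -0.35, -0.30 and 0.21 (adjusted p = 0.0158, 0.0129 and 0.0598), and against it alone -0.13, -0.0088 and 0.055 (adjusted p = 1.00 for each).

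**Figure D3:**
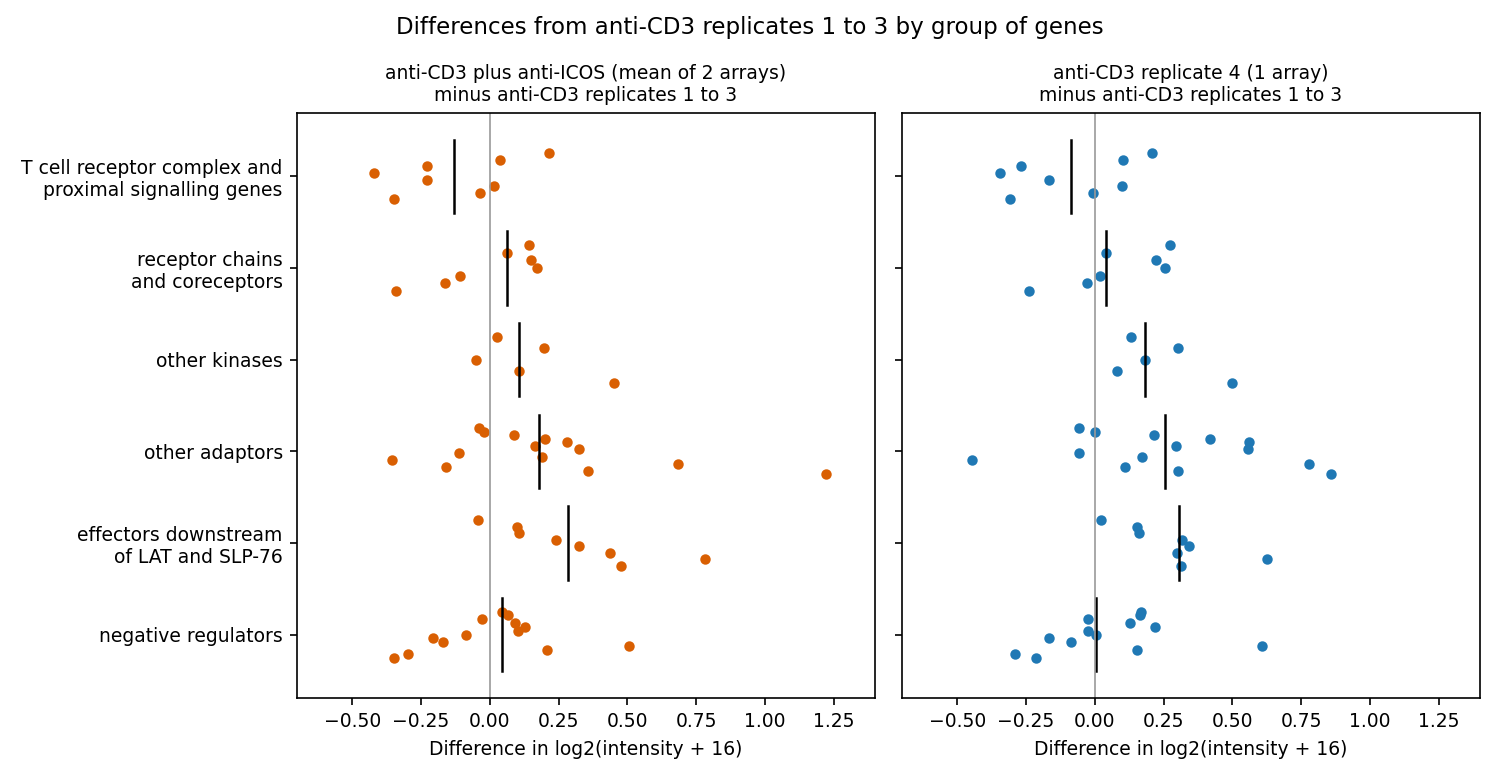
Differences in log2(intensity + 16) from the mean of anti-CD3 replicates 1 to 3, each point 1 gene and each bar a list's median, for the mean of the 2 anti-ICOS arrays (left) and for anti-CD3 replicate 4 (right). Both panels subtract the same replicates 1 to 3, and in both the receptor complex and proximal signalling genes have a median below 0 (-0.13 and -0.087) and the effectors a median above it (0.28 and 0.31).

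The mean of the 4 signalling chains Cd3e, Cd3d, Cd3g and Cd247, each less its own average, lay at -0.11 and -0.052 with anti-ICOS and at 0.056, 0.12, 0.016 and -0.030 in anti-CD3 replicates 1 to 4. The genes nearest to this profile over the 6 arrays, among 9960 genes whose mean lay above the median of all genes, were Cenpu, Dck, Il9r, Bcat2 and Ttll12, with Pearson r of 0.997, 0.996, 0.995, 0.995 and 0.994. As a description only, 693 of the 9960 had r above 0.9, and the 6 arrays fall into 2 clusters that many genes share. The log2 differences of these 5 genes were between -0.36 for Cenpu and -0.22 for Dck, and none passed the test (adjusted p between 0.416 and 0.423).

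Markers of other cells moved with the groups as follows, and their part in the values above was not tested. The summed intensity of 8 other T cell markers, 5 of which are also in the pathway lists, lay at 19376 to 20181 with anti-ICOS, against 20817 to 21311 with anti-CD3, and both anti-ICOS arrays were below all anti-CD3 arrays for 4 of the 8 (14.8% of all genes) and above for 1 (8.51%). The sum of 7 B cell markers was 17348 to 19146 with anti-ICOS and 16013 to 19037 with anti-CD3, where replicate 4 was the highest. The B cell genes did not move together. Both anti-ICOS arrays were above all anti-CD3 arrays for 0 of the 7 (8.51% of all genes) and below for 1 (14.8%). That gene was Fcer2a, with a log2 difference of -0.50 ± 0.16 (limma adjusted p = 0.413). The sum of 5 CD8 and cytotoxic markers was 5768 to 5791 with anti-ICOS and 4651 to 5953 with anti-CD3, again with replicate 4 highest.

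Myeloid and innate markers were summed in the same way. The sum of 8 dendritic cell markers was 1102 to 1107 with anti-ICOS and 686 to 792 with anti-CD3. Flt3, a growth factor receptor gene of dendritic cell precursors, was higher by 1.26 ± 0.087 (adjusted p = 0.00321), and by 1.16 against replicate 4 alone. It was the only 1 of the 8 called with all arrays, and the log2 differences ran down to -0.19 for Xcr1. Both anti-ICOS arrays were above all anti-CD3 arrays for 5 of the 8 (8.51% of all genes) and below for 1 (14.8%). The sum of 7 monocyte and macrophage markers was 1231 to 1878 with anti-ICOS and 730 to 1208 with anti-CD3, and that of 7 NK cell markers was 3360 to 3365 with anti-ICOS and 2492 to 3323 with anti-CD3. For both lists replicate 4 held the highest anti-CD3 value. In each list both anti-ICOS arrays were above all anti-CD3 arrays for 3 of the 7 genes (8.51% of all genes) and below for 0 (14.8%). The brightest NK cell marker, Klrd1, averaged 11.21 with anti-ICOS and 11.09 with anti-CD3 on the log2 scale, and its groups overlapped. Neutrophil markers (8 genes) summed to 602 to 1418 with anti-ICOS and 450 to 566 with anti-CD3, and mast cell and basophil markers (6 genes) to 412 to 565 with anti-ICOS and 277 to 356 with anti-CD3, with replicate 4 the lowest for both. Of the 6 mast cell and basophil genes, 4 lay above the whole anti-CD3 range on both anti-ICOS arrays (8.51% of all genes) and 0 below it (14.8%). Within the neutrophil list the log2 differences ran from -0.20 for Camp to 1.67 for Mpo, none past the test with all arrays, and the pair with anti-ICOS exceeded the whole anti-CD3 range for 4 of the 8 genes (8.51% of all genes) and fell short of it for 1 (14.8%). The 2 anti-ICOS arrays were themselves far apart for Mpo, at 7.27 in replicate 1 and 9.12 in replicate 2 on the log2 scale. The sum of 2 red cell genes was 129 to 132 with anti-ICOS and 113 to 130 with anti-CD3. No marker could read 0, since the lowest value on any array was 7.23, so a value above 0 does not by itself show expression. Some summed markers lay near that floor. The mast cell gene Ms4a2 averaged 5.23 with anti-ICOS and 5.14 with anti-CD3 on the log2 scale, where only 5.54% of genes had a lower mean.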

How the data were processed

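The intensities deposited by the authors are linear and normalized, with 1 value per probe set and array between 7.23 and 22176. Per the submitters' processing notes the tool was MAS5, while the sources used here do not give the normalization, centring or probe summary. If the arrays were set to equal levels, a shift of most genes 1 way would not be seen. Groups and replicate numbers came from the sample titles.

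Of 34760 probe sets, 21640 had 1 gene symbol in GEO's platform annotation, 1321 had several and 11799 were unnamed here. Each gene took its brightest probe set, and each of the 8 genes described had only 1. Values were analysed as log2(intensity + 16), an offset that is small beside every value of the 8 genes. All 19937 genes were fitted on the 6 arrays with limma 3.58.1 (R 4.3.3), which leaves 4 residual degrees of freedom, using lmFit followed by eBayes. Two-sided p-values were adjusted by Benjamini-Hochberg over the 19937 genes and called under 0.05. Each difference is the anti-ICOS group less the anti-CD3 group. In the fit against replicate 4 alone, replicates 1 to 3 add only to the spread.

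The members and lists were chosen with earlier results of these data known. Genes named are the 8, the 3 of smallest p in each pathway list, and the 5 most like the 4 signalling chains. The genes beside the Cd3 genes, the motifs and the single marker genes were chosen after values were seen. The fit was tried on simulated data drawn independently for each gene and array. An array-wide shift such as that of anti-CD3 replicate 4 was not simulated. The 18 alternatives changed normalization, offset, filter on dim genes, prior, array weights, gene summary, arrays used, replicate block or threshold. The plots used matplotlib 3.10.9 (Python 3.11.15).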

Additional observations from a re-analysis of the deposited data

Results flagged for a closer look

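Among the genes named, 2 had an array far from the rest of its group, in both cases anti-CD3 replicate 4, judged by its distance to the closest array as a share of the group's whole range, where values above 0.829 are rare. Chance flags about 1 in 20 groups when any array of the group counts. Replicate 4 itself was apart in this way for 6% of all genes. The chance rate for 1 given array is lower than 1 in 20. Genes read on the same array are not independent, so the 6% cannot be weighed against that rate. For the adaptor gene Sh2b3 the ratio was 0.881, with 10.12 and 10.13 on the log2 scale with anti-ICOS, 10.07 in replicate 4 and 9.78, 9.78 and 9.74 in replicates 1 to 3. For Lyz2, the lysozyme gene of myeloid cells, the ratio was 0.963, with 8.47 and 9.67 with anti-ICOS, 8.53 in replicate 4 and 6.71, 6.70 and 6.77 in the 3 others. None of the 8 receptor and proximal signalling genes passed this limit. Replicate 4 was still the outlying anti-CD3 array for Cd3e, Cd247, Cd4, Zap70 and Lcp2, with ratios of 0.768, 0.769, 0.673, 0.635 and 0.695.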

How the results depend on the processing

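3 settings moved the count of called members from 0 to 5 of 8: leaving out anti-CD3 replicate 4, array quality weights and the replicate block. Each called 1 higher and 4 lower. Leaving out any single array gave 0 to 5 members, 0 to 16 pathway genes and 16 to 5931 of all genes, where the full fit gave 0, 0 and 54. Array quality weights gave 26 pathway genes and 9414 of all genes. The replicate block, in which anti-CD3 replicates 3 and 4 have no partner and drop out of the difference and 1 residual degree of freedom is left, gave 18 pathway genes and 6552 of all genes. The labels link same-numbered samples only by that number. The deviations of same-numbered arrays correlated at -0.039 and 0.10, but these values cannot decide whether the cultures were paired. With 2 anti-ICOS arrays, the deviation of 1 array is that of the other with its sign turned. With an offset of 64 there were 28 genes in all, against replicate 4 alone 35, and at a threshold of 0.1 there were 85. The cause of these shifts was not tested.

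Across the 18 alternatives Cd3e, Cd3d, Cd247 and Cd4 were lower and Lcp2 higher each time. Cd3g turned positive with quantile normalization (0.017), with array weights (0.013), and when anti-CD3 replicate 2, anti-CD3 replicate 4 or anti-ICOS replicate 1 was left out (0.0055, 0.015 and 0.041). Leaving out each array gave Cd3g differences of -0.061 to 0.041 and Lat differences of -0.027 to 0.035. Lat turned negative with array weights (-0.00092), with the replicate block (-0.0063), without anti-CD3 replicate 3 (-0.027), without anti-ICOS replicate 2 (-0.0046) and against replicate 4 alone (-0.069). Against replicate 4 alone these also turned: Zap70 (0.037), Tec (-0.050), Ube4a (-0.021), Cd79b (-0.016), the B cell gene Ms4a1 (-0.071), Cd8a (-0.13) and Cd8b1 (-0.070). Of 144 values of the 8 genes 118 kept their direction and side of the threshold, as did 468 of 538 values of 30 other named genes. The other 2 values do not exist, since Mpzl2 and the NK cell gene Ncr1 were among the dim genes filtered out. The number of arrays limits the precision, with standard errors of 0.076 to 0.12 for the 8 genes.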
